A study of Mus musculus with 10 samples.

Results

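The genes described here are 9 transcription factors of the signal transducer and activator of transcription (STAT) and interferon regulatory factor (IRF) families in obstructed mouse kidneys. They were taken by name: Stat2, Stat3, Stat6, Irf1, Irf3, Irf5, Irf7, Irf8 and Irf9, each matched by its symbol to 1 gene, made up 9 of the 54532 genes in the table. From general knowledge of the families, 5 of them (Stat2, Irf1, Irf7, Irf8 and Irf9) were classed as interferon-induced, and 4 (Stat3, Stat6, Irf3 and Irf5) as not induced or only weakly so. The members were chosen with earlier results of these data known. The kidneys were those of wild-type (WT) male C57BL/6 mice whose left ureter had been tied at an age of 8 weeks (unilateral ureteral obstruction, UUO), and they were collected on day 14. For treatment, 5 mice were given dimethyl malonate (DMM), a prodrug ester that blocks succinate dehydrogenase, at 40 mg/kg into the peritoneum on alternate days, and 5 control mice were given PBS. Each kidney gave 1 bulk mRNA library. Both groups were obstructed, so every comparison is between treated and untreated obstructed kidneys.

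As background, STAT proteins wait in the cytoplasm until a cytokine receptor activates its JAK kinases, which phosphorylate them and send them to the nucleus. Downstream of type I interferon the active complex is ISGF3, made of STAT2, IRF9 and a further STAT protein, and genes for its own subunits and for Irf7 are among its targets, so that the RNA of these factors both follows and sustains an interferon response. IRF3, IRF5 and IRF7 are switched on by kinases below nucleic acid sensors and Toll-like receptors, while IRF1 and IRF8 act largely through their amount, and IRF5 and IRF8 are abundant in the macrophages that enter an injured kidney. RNA level does not report phosphorylation, and so does not measure the activity of any of these proteins.

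Sequencing depth was similar: PBS libraries held 16457495 to 18078777 counted reads, with a median of 17825223, and DMM libraries 15722527 to 19475833, with a median of 16794390. A member of the group was counted at no fewer than 249 reads (Irf3, DMM replicate 4) and at up to 17969 reads (Irf7, PBS replicate 1) in any library. Before any result, 3 libraries have to be set apart. In the group means deposited by the authors, PBS replicate 3 and DMM replicate 1 carry a weight of 0, whereas the weights of the other 8 libraries lie between 0.227 and 0.271, and no reason is given in the sources used here. On a log2 scale that puts the mean of the other 4 PBS libraries at 0 and that of the other 4 DMM libraries at 1, the library labelled DMM replicate 1 lay at a median of 0.0548 over the 589 genes that fell with DMM in those 8 libraries and 0.0268 over the 450 that rose. PBS replicate 3 lay at 0.228 over the genes that fell and at 0.872 over those that rose. DMM replicate 4 had the highest total, yet a count for only 20029 genes, against 22898 to 24083 in the other 9 libraries, and a TMM scaling factor of 0.852 against 0.981 to 1.05. Over the 6 members called lower in the 8 libraries, DMM replicate 1 lay at -0.0684 to 0.119 and PBS replicate 3 at -0.0224 to 0.194, so both were near the PBS mean in these genes. Whether any label is exchanged was not tested. The labels were used as deposited, and the values over 10 libraries depend on them. Fold changes and counts of calls are therefore given over all 10 libraries and over the 8 that carry weight. In some cases they are also given without DMM replicate 4. These sets share libraries, and neither is an independent check of the other. Over the genes that rose, both libraries without weight lay nearer the mean of the other group. The p-values over 8 libraries depend on leaving them out and cannot be read at face value.

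The kidney label was checked against markers. Tubule, podocyte and endothelial genes were present in every library: Lrp2, the megalin receptor of the proximal tubule, at 219.6 to 2504 CPM (counts relative to library size, with TMM scaling), Umod at 1001 to 3704 CPM, Podxl at 281 to 544 CPM and Eng at 272 to 357 CPM. No marker of any list was at 0 in all libraries. Tubule markers differed between the groups. Over the 8 libraries 4 of 8 proximal tubule markers and 4 of 7 markers of the loop, distal tubule and collecting duct passed the test as higher with DMM, and over 10 libraries 2 and 1 were higher by more than 1.5-fold with an unadjusted p below 0.05. The summed level of the proximal tubule markers, led by Lrp2, was 1664, 1669, 4136, 682 and 1245 CPM in PBS replicates 1 to 5 and 1174, 3237, 4113, 4095 and 4709 CPM in DMM replicates 1 to 5. In this sum PBS replicate 3 sat with DMM replicates 2 to 5, and the library labelled DMM replicate 1 with the other PBS kidneys. More than any other marker, Lrp2 (2504 CPM) made up the sum of DMM replicate 4. Over the loop, distal tubule and collecting duct markers, the PBS range was 1801 to 4488 CPM. DMM replicate 4, at 2111 CPM, and DMM replicate 2, at 4344 CPM, were inside it. DMM replicates 3 and 5 were above it, at 5014 and 5379 CPM. In whole kidney RNA, fewer cells of a type and less RNA per cell cannot be told apart, and the part of tubule content in the results below was not tested.

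Over all 10 libraries, 0 of the 9 STAT and IRF genes were called by edgeR's quasi-likelihood test, where a call needs more than a 1.5-fold change and an adjusted p (Benjamini-Hochberg) below 0.05. No tested gene was called either: 0 of 16505 were lower (0.0%) and 0 higher, with a smallest adjusted p of 0.378. At an unadjusted p under 0.05 and more than 1.5-fold, 5 of the 9 fell (background 4.1% of tested genes), and DESeq2 called 36 genes lower and 14 higher, with 0 of the 9 among them. Over the 8 libraries, 6 of the 9 were called lower and 0 higher by edgeR, against 590 of 16550 tested genes lower (3.56%) and 452 higher (2.73%). DESeq2 also called 6 of the 9 lower and 0 higher over these libraries. These totals moved with single libraries: without PBS replicate 1, 2, 4 or 5 or DMM replicate 3 or 5 edgeR called 276 to 367 genes lower and 131 to 225 higher, and without DMM replicate 4 it called 1281 and 1129, with 4 or 5 of the 9 members lower each time. Scaling by library size alone gave, over 8 libraries, 700 lower and 276 higher, 6 of the 9 among the lower, and the median log2 fold change of all tested genes moved by -0.11.

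The calls fell mainly in the interferon-induced class. Over the 8 libraries 5 of 5 induced genes were called lower, with a median log2 fold change of -1.39, against 1 of 4 (Irf5) in the other class, with a median of -0.15. Over 10 libraries the medians were -1.06 and -0.09, and the median of all tested genes was 0.02 in both sets. The difference between the classes was not tested. Values of DMM replicates 2 to 5 lay under those of PBS replicates 1, 2, 4 and 5 in 7 of the 9 genes (background 10.7%), and once all 10 libraries were compared only Irf1 kept its groups apart, 1 of 9 (background 1.16%). The library labelled DMM replicate 1 was at or above the lowest PBS kidney in 8 of the 9. With that library alone left out, 6 of the 9 were called lower, among 436 genes lower and 50 higher.

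**Figure D1:**
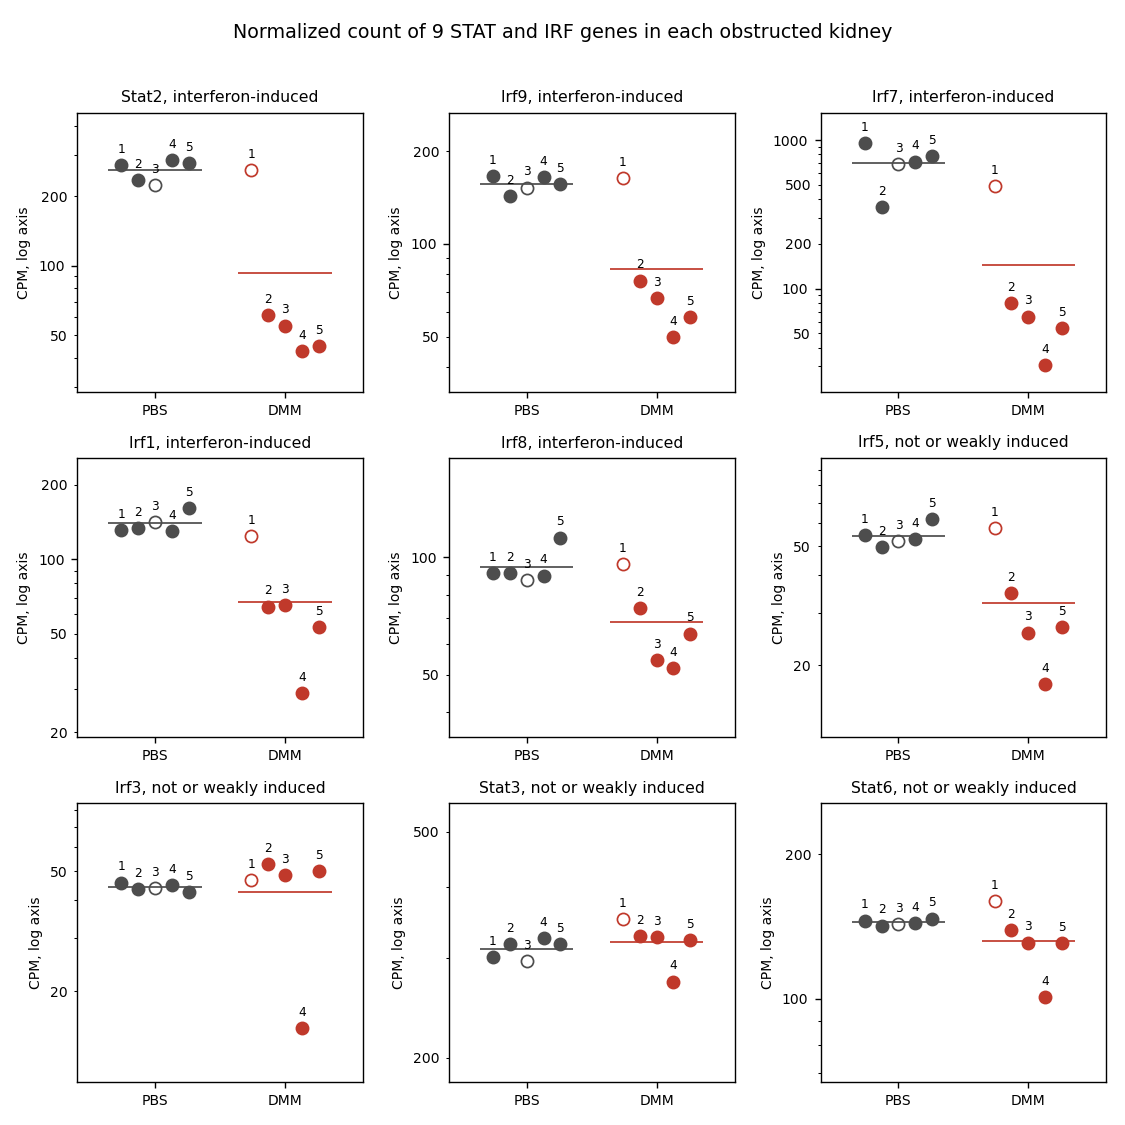
Normalized count (CPM on a log axis) of the 9 genes in each mouse, numbered by replicate, with lines at the mean of 5 mice; open symbols are PBS replicate 3 and DMM replicate 1. In Stat2 and Irf7, DMM replicates 2 to 5 lie at 61.1 and 80.1 CPM or lower, while DMM replicate 1 lies at 259.6 and 488 CPM, within the PBS range.

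The STAT and IRF subunits of ISGF3 fell together. Stat2 (ENSMUSG00000040033; mm10 chromosome 10, 128270559 to 128292849, plus strand) was at 272, 235, 224, 286 and 278 CPM in PBS replicates 1 to 5 and at 259.6, 61.1, 55.1, 42.8 and 44.9 CPM in DMM replicates 1 to 5. Treated kidneys 2 to 5 were far under every PBS kidney, and the library labelled DMM replicate 1 was inside the PBS range. Over the 8 libraries Stat2 fell by 2.39 on the log2 scale (standard error 0.15), 5.26-fold, from 267.9 ± 22.8 (SD, n = 4) to 51.0 ± 8.63 (SD, n = 4) CPM, with an adjusted p of 0.000107 from edgeR's fit across all genes. It ranked 9th of 16550 genes by p. Over 10 libraries its log2 fold change was -1.48 (standard error 0.48, adjusted p = 0.385), and an exact two-sided permutation test of mean log2 CPM gave p = 0.0238. In edgeR a fold change compares means of counts, so with DMM replicate 1 included it is smaller than the difference of the log2 means, which was -1.88 for Stat2.

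Irf9 (ENSMUSG00000002325; chromosome 14, 55603571 to 55610030, plus strand), the DNA-binding subunit of the same complex, was at 166, 143, 152, 165 and 157 CPM in PBS replicates 1 to 5. In DMM replicates 1 to 5 it was at 163, 76.0, 66.7, 49.8 and 58.0 CPM. Again replicates 2 to 5 lay under all PBS kidneys and replicate 1 among them. Irf9 fell by 1.33 over the 8 libraries (standard error 0.15), 2.52-fold, with an adjusted p of 0.00136. Its log2 fold change was -0.92 over 10 libraries (adjusted p = 0.378, exact permutation p = 0.0317). Both subunits kept their call when any 1 of the 8 libraries was left out.

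Irf7 (ENSMUSG00000025498; chromosome 7, 141262706 to 141266481, minus strand), the factor that amplifies interferon-alpha production, had the widest range of the group. Its level was 952, 352, 692, 716 and 780.4 CPM in PBS replicates 1 to 5 and 488, 80.1, 64.8, 30.4 and 54.0 CPM in DMM replicates 1 to 5. PBS replicate 2 was the low PBS kidney, and DMM replicate 1 was above it, so the groups overlap over 10 libraries and not over 8. Irf7 fell by 3.61 over the 8 (standard error 0.38), 12.2-fold, with an adjusted p of 0.00120, the 12th largest fall among the tested genes. The value over all 10 was -2.28 (standard error 0.70, adjusted p = 0.378, exact permutation p = 0.0159), and it was called with each single library of the 8 left out. Irf7 was also the least uniform member among untreated obstructed kidneys, with a coefficient of variation of 31.3% over 5 PBS mice, against 1.38% for Stat6, 2.78% for Irf3 and between 3.88% and 10.8% for the other 6. Its reads made up 0.0363% to 0.0994% of all counts in PBS kidneys, 0.0501% in DMM replicate 1 and 0.00258% to 0.00808% in DMM replicates 2 to 5.

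Irf7 can also be set against Irf3, its relative that is present before any interferon signal, within each library, where no scaling enters. The ratio of Irf7 to Irf3 reads was 20.8, 8.04, 15.7, 15.9 and 18.3 in PBS replicates 1 to 5, and 10.4, 1.52, 1.34, 2.02 and 1.08 in DMM replicates 1 to 5. DMM replicates 2 to 5 were all below every PBS kidney and DMM replicate 1 was inside the PBS range. The highest ratio of those 4 was in DMM replicate 4, the library with few detected genes. Both genes were at their lowest there, Irf7 at 30.4 CPM and Irf3 at 15.0 CPM. In DMM replicates 2, 3 and 5 Irf3 was at 48.5 to 52.6 CPM.

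Irf1 and Irf8 are induced chiefly by interferon-gamma. Irf1 (ENSMUSG00000018899; chromosome 11, 53770014 to 53778374, plus strand) was at 132, 134, 142, 130.0 and 160.5 CPM in PBS replicates 1 to 5 and at 124, 64.4, 65.3, 28.8 and 53.1 CPM in DMM replicates 1 to 5. Every DMM kidney, replicate 1 included, was under every PBS kidney, which held for no other member over 10 libraries. Irf1 fell by 1.39 over the 8 libraries (standard error 0.24), 2.63-fold, with an adjusted p of 0.0115, and kept its call with any 1 of them left out, at an adjusted p of up to 0.0495. All 10 gave a log2 fold change of -1.06 (adjusted p = 0.378), and the exact permutation p was 0.00794, the smallest that 252 relabelings allow. DMM replicate 4 was the lowest, and without it the log2 fold change of the remaining 7 libraries was -1.19 (adjusted p = 0.000117).

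Irf8 (ENSMUSG00000041515; chromosome 8, 120736358 to 120756694, plus strand), a factor of the monocyte and dendritic cell lineage, was at 91.2, 91.0, 87.5, 89.7 and 112 CPM in PBS replicates 1 to 5. It was at 96.0, 74.1, 54.5, 52.0 and 63.7 CPM in DMM replicates 1 to 5. Replicates 2 to 5 were again the low kidneys, but the gap to the lowest PBS kidney was narrow. With the 8 libraries Irf8 fell by 0.65 (standard error 0.14), 1.57-fold, with an adjusted p of 0.0296, just past both limits of a call. That call was lost without PBS replicate 1, 2, 4 or 5 (adjusted p = 0.0706, 0.0749, 0.0760 and 0.103) and without DMM replicate 3 or 5 (adjusted p = 0.0929 and 0.0780). Without DMM replicate 4 the adjusted p was 0.00640, but the log2 fold change of -0.58 was short of 1.5-fold. Over 10 libraries the log2 fold change was -0.47 (adjusted p = 0.387, exact permutation p = 0.0397).

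Irf5 (ENSMUSG00000029771; chromosome 6, 29526625 to 29541871, plus strand) is activated below Toll-like receptors and drives inflammatory cytokine genes in macrophages. It was the only member outside the induced class to be called. It was at 54.6, 49.7, 52.1, 52.9 and 61.7 CPM in PBS replicates 1 to 5 and at 57.5, 34.8, 25.7, 17.3 and 26.9 CPM in DMM replicates 1 to 5. DMM replicates 2 to 5 were under all PBS kidneys and replicate 1 was inside their range, as for Stat2 and Irf9. The 8 libraries gave Irf5 a fall of 1.06 (standard error 0.20), 2.09-fold, with an adjusted p of 0.0152. The call was lost without PBS replicate 5 (adjusted p = 0.0623), DMM replicate 3 (0.0545) or DMM replicate 5 (0.0520). The fall over 10 libraries was -0.74 on the log2 scale (adjusted p = 0.387, exact permutation p = 0.0397).

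Some macrophage and other leukocyte markers were also lower in DMM replicates 2 to 5, and others were not lower in all of them. Cx3cr1 was at 92.9, 78.8, 119 and 71.4 CPM in DMM replicates 2 to 5, and Ccr2 at 90.1, 54.1, 115 and 64.3 CPM. Their PBS ranges were 84.9 to 117 and 84.7 to 117 CPM. For both genes DMM replicates 3 and 5 were under the PBS range, while replicates 2 and 4 were within or above it. Among 12 macrophage and monocyte markers 4 were called lower over the 8 libraries (Cd68, C1qb, Ly6c2 and Fcgr1), with a median log2 fold change of -0.96, and over 10 libraries 0 were called and 7 of 12 fell more than 1.5-fold with an unadjusted p below 0.05 (median -0.66). DESeq2 called 8 of them lower over 8 libraries and 0 over 10. Their summed level was 2501, 2491, 1978, 2281 and 2703 CPM in PBS replicates 1 to 5 and 2348, 1619, 1280, 998 and 1291 CPM in DMM replicates 1 to 5. Lyz2 was the most abundant of them, at 565 to 890.2 CPM in PBS kidneys, 792 CPM in DMM replicate 1 and 198 to 539 CPM in the other DMM kidneys. Of the pan-leukocyte markers, 3 of 4 were called lower over 8 libraries, 4 by DESeq2, and 3 fell over 10 by more than 1.5-fold with an unadjusted p below 0.05, with sums of 639, 572, 536, 585 and 677 CPM in PBS and 559, 394, 287, 379 and 291 CPM in DMM replicates 1 to 5, led by Laptm5. T cell markers had the lowest median of the leukocyte lists, -1.19 over 8 libraries and -0.91 over 10. Of 7, edgeR called 1 lower over 8 libraries (Cd4) and DESeq2 4, while 7 over 8 libraries and 5 over 10 fell more than 1.5-fold with an unadjusted p below 0.05. Their summed level was 54.3, 56.03, 53.0, 46.9 and 79.2 CPM in PBS and 50.3, 42.6, 17.7, 21.6 and 22.8 CPM in DMM replicates 1 to 5. Among 7 dendritic cell markers (medians -0.50 and -0.37) edgeR called 1 lower over 8 libraries (Itgax) and DESeq2 3, and 3 over 8 and 1 over 10 passed the unadjusted limits. NK cell, B cell and neutrophil markers had 0 of 4, 0 of 5 and 0 of 5 called by edgeR, with 0, 1 and 0 lower by the unadjusted limits over 8 libraries, 1, 0 and 0 over 10, and 0, 1 and 0 called lower by DESeq2 over 8. No marker of these lists was at 0. The part of leukocyte content in the falls of Irf5, Irf8 and the other members was not tested.

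Fibroblast and pericyte markers had 1 of 6 called lower by edgeR over 8 libraries (Lum), 3 by DESeq2 and 3 by the unadjusted limits, against 0, 0 and 0 over 10, and medians of -0.82 and -0.48. They had a summed level, led by Col3a1, of 4601, 6873, 3731, 10730 and 6463 CPM in PBS and 7866, 3755, 2619, 5733 and 3082 CPM in DMM replicates 1 to 5. Podocyte and endothelial markers had 0 of 4 and 0 of 5 called by edgeR, 0 and 0 at an unadjusted p under 0.05 and more than 1.5-fold, and 0 and 0 by DESeq2.

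Irf3 (ENSMUSG00000003184; chromosome 7, 44997648 to 45002848, plus strand), which waits in the cytoplasm and starts interferon-beta transcription once phosphorylated, was steady except in 1 library. It was at 45.8, 43.7, 44.1, 45.0 and 42.6 CPM in PBS replicates 1 to 5 and at 46.8, 52.6, 48.5, 15.0 and 49.97 CPM in DMM replicates 1 to 5. All DMM kidneys except replicate 4 were above every PBS kidney, and replicate 4 was far below both groups. Its log2 fold change was -0.09 over 8 libraries (standard error 0.33, adjusted p = 0.899) and -0.06 over 10 (adjusted p = 0.943). The direction turned when DMM replicate 4 was also left out: 0.18 over the remaining 7 libraries (adjusted p = 0.0473), which is short of 1.5-fold, and 0.16 over 9 (adjusted p = 0.256). The tested genes nearest to Irf3 in pattern, Ubl7, Adrm1 and Dad1, had the same low library, at 14.7, 22.4 and 25.9 CPM in DMM replicate 4 against 42.8 to 48.7, 70.9 to 81.1 and 83.3 to 87.4 CPM in DMM replicates 2, 3 and 5.

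Stat3 and Stat6 answer to cytokines other than interferons, among them those of gp130 receptors for STAT3 and interleukin-4 and interleukin-13 for STAT6. Stat3 (ENSMUSG00000004040; chromosome 11, 100885098 to 100939540, minus strand) was at 301, 317, 296, 325 and 317 CPM in PBS replicates 1 to 5 and at 352, 327, 326, 272 and 323 CPM in DMM replicates 1 to 5. The ranges overlapped, with DMM replicate 1 highest and DMM replicate 4 lowest of all. Its log2 fold change was -0.01 over 8 libraries (standard error 0.11, adjusted p = 0.956) and 0.04 over 10 (standard error 0.10, adjusted p = 0.877), and its sign changed among the alternatives over 8 libraries, from -0.12 to 0.05.

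Stat6 (ENSMUSG00000002147; chromosome 10, 127642986 to 127660957, plus strand) was at 146, 142, 143, 144 and 147 CPM in PBS replicates 1 to 5, the tightest of the 9. In DMM replicates 1 to 5 it was at 159.7, 139, 131, 101 and 131 CPM. Replicates 2, 3 and 5 lay just under the PBS kidneys, replicate 4 further under them and replicate 1 above them. The log2 fold change was -0.21 over 8 libraries (standard error 0.12, adjusted p = 0.363) and -0.13 over 10 (adjusted p = 0.674, exact permutation p = 0.222), so Stat6 was not called although its groups did not overlap over the 8.

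**Figure D2:**
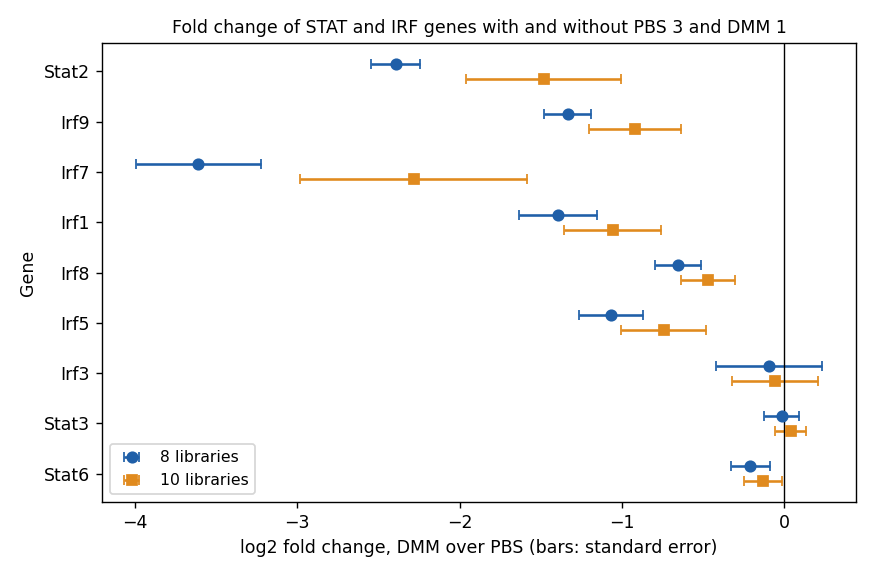
Log2 fold change of DMM over PBS for the 9 genes (points) with its standard error (bars), over 8 libraries (circles) and over all 10 (squares). Irf7 and Stat2 lie at -3.61 and -2.39 over 8 libraries and at -2.28 and -1.48 over 10, whereas Stat3 lies at -0.01 and 0.04.

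Stat3 was taken as a reference within each library because its scaled level hardly moved. Ratios to it therefore repeat the scaled fold changes by that choice and are no separate check of the scaling. The log2 ratio of Irf7 to Stat3 reads averaged 1.10 in the 5 PBS kidneys and -2.53 in DMM replicates 2 to 5, with 0.48 in DMM replicate 1. Irf7 was thus the more counted gene of the pair in every PBS kidney and in DMM replicate 1, and the less counted in the other DMM kidneys.

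Levels of different genes were compared per transcript length, as the FPKM deposited by the authors. In PBS kidneys the mean over 5 mice ran from Irf7 at 184 ± 57.5 FPKM (SD, n = 5), above 99.1% of tested genes, through Stat2 (43.4 ± 4.75), Irf1 (34.8 ± 3.18), Stat6 (32.5 ± 0.498), Stat3 (32.4 ± 1.31), Irf9 (28.9 ± 1.77), Irf5 (18.5 ± 1.59) and Irf8 (13.3 ± 1.45) to Irf3 (12.8 ± 0.344). The median tested gene was at 5.59 FPKM. The neighbours Stat2 and Irf1, Irf1 and Stat6, Stat6 and Stat3, and Irf8 and Irf3 overlapped between mice and have no order beyond their spread, while Irf7 stood clear of Stat2. In DMM replicates 2 to 5 the order was different. Stat3 led at 32.5 ± 2.86 FPKM (SD, n = 4), followed by Stat6 (28.3 ± 3.82), Irf7 (15.1 ± 5.52), Irf1 (13.2 ± 4.27), Irf3 (12.0 ± 5.14), Irf9 (11.6 ± 2.10), Irf5 (8.95 ± 2.45), Irf8 (8.60 ± 1.42) and Stat2 (8.55 ± 1.46). There only Stat6 and Irf7 did not overlap as neighbours. By these means Stat2 moved from place 2 to place 9, and Irf7 from place 1 to place 3. Of these places, only that of Irf7 in PBS kidneys did not overlap with a neighbour. The library labelled DMM replicate 1 had 128.9 FPKM of Irf7 and 43.7 FPKM of Stat2.

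**Figure D3:**
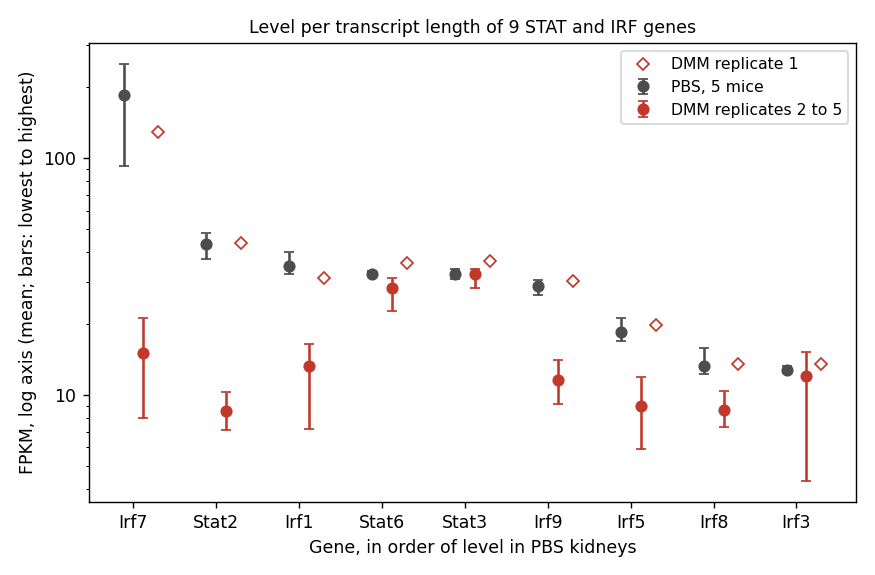
Level of each gene in FPKM on a log axis, as mean (points) and lowest to highest mouse (bars) of 5 PBS kidneys and of DMM replicates 2 to 5, with DMM replicate 1 as an open diamond. Irf7 falls from 184 to 15.1 FPKM and Stat2 from 43.4 to 8.55 FPKM, while Stat3 stays at 32.4 and 32.5 FPKM.

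Upstream of these factors, the interferon genes themselves were nearly without reads. Of 19 listed ligand genes 0 had enough reads to be tested, 17 had at most 3 counts in any library and 16 had 0 counts in all 10, where counting error alone allows up to 0.154 to 0.191 CPM (unscaled). Ifng, the gene of interferon-gamma, reached at most 0.412 CPM. The receptors and their kinases were expressed, and 0 of 9 were called by edgeR over 8 libraries, with 0 at an unadjusted p under 0.05 and more than 1.5-fold and 0 by DESeq2. Their median log2 fold change was -0.15, against 0.02 for all tested genes. DMM replicate 4 was the highest of all libraries for Ifnar1, Ifngr2, Jak1 and Jak2, and the lowest DMM kidney for the rest of the list. Jak2 was at 94.1, 78.9, 170 and 89.8 CPM in DMM replicates 2 to 5, against 101 to 129 CPM in PBS kidneys. Ifngr2 was at 86.0, 89.4, 156 and 79.1 CPM, against 89.2 to 108 CPM. Ifngr1, the most abundant per length, was at 124 to 189 CPM in PBS kidneys and 91.6 to 165 CPM in DMM kidneys, with a log2 fold change of -0.31 over 8 libraries (adjusted p = 0.329) and -0.16 over 10. Ifnar2, a chain of the type I interferon receptor, was at 54.2 to 63.0 CPM in PBS kidneys and 35.5 to 53.6 CPM in DMM kidneys, so every DMM kidney was under every PBS kidney. Its log2 fold change was -0.47 over 8 libraries (adjusted p = 0.0489), short of 1.5-fold, and -0.37 over 10 (adjusted p = 0.385). Among 10 receptor genes that signal to STAT3 or STAT6, 2 were called lower over 8 libraries. These were Il10ra, the interleukin-10 receptor (-1.38, adjusted p = 0.00193), and Il2rg, the common gamma chain (-1.30, adjusted p = 0.00531), whose log2 fold changes over 10 libraries were -0.97 and -1.01 (adjusted p = 0.378). DESeq2 called 2 of the 10 lower over 8 libraries and 1 over 10.

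Of 16 tested activators of IRF3, IRF5 and IRF7, 5 were called lower and 0 higher over 8 libraries, and 4 were lower at an unadjusted p under 0.05 and more than 1.5-fold over 10. They were Tlr9, the endosomal receptor for DNA (-1.91, adjusted p = 0.000191), Mb21d1, which encodes the DNA sensor cGAS (-1.47, adjusted p = 0.00300), its adaptor Tmem173 (-0.66), the kinase gene Ikbke (-0.98) and Myd88 (-0.80). Over 10 libraries they were at -1.20, -0.98, -0.46, -0.69 and -0.57, and 0 were called by edgeR or by DESeq2. Tlr9 was at 55.6 to 71.8 CPM in PBS kidneys, 69.4 CPM in DMM replicate 1 and 14.7 to 21.1 CPM in the other DMM kidneys. The kinase gene Tbk1 (-0.23, and -0.21 over 10) and the adaptor gene Mavs (0.33, and 0.21 over 10) were not called.

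Of 18 genes that restrain STAT or IRF signaling, 4 were called lower and 0 higher over 8 libraries, with 4 lower over 10 at an unadjusted p under 0.05 and more than 1.5-fold. Usp18, which blocks the interferon receptor and is itself an ISGF3 target, was at -3.41 on the log2 scale (standard error 0.22, adjusted p = 0.000108), and Trim21 at -1.76 (adjusted p = 0.000388). Socs1 (-2.44, with 0.181 CPM in DMM replicate 4), also listed as an IRF1 target, and the phosphatase gene Ptpn6 (-0.77) were the others, and Socs3, an inhibitor induced by STAT3, was at -0.11 and not called. Over 10 libraries Usp18, Trim21, Socs1, Ptpn6 and Socs3 were at -1.86, -1.18, -1.51, -0.59 and -0.01, and 0 of the list were called by edgeR or by DESeq2. The list therefore holds interferon targets as well as general inhibitors. Among the other 7 STAT and IRF genes, 1 was called lower and 0 higher over 8 libraries, 1 was lower over 10 by more than 1.5-fold at an unadjusted p below 0.05, and the median log2 fold change was -0.42 over 8 and -0.26 over 10.

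Downstream, the listed targets of ISGF3 fell with its subunits. This list and that of IRF1 targets were chosen with earlier results of these data known. Their shares of calls are therefore no separate support for the falls of the members. Over 8 libraries 29 of 30 were called lower and 0 higher, with a median log2 fold change of -2.88, and the exception was Eif2ak2 (adjusted p = 0.0618). Eif2ak2 was at 60.0, 48.6, 147 and 45.3 CPM in DMM replicates 2 to 5, against 139 to 199 CPM in PBS kidneys. DMM replicate 4 was thus far above replicates 2, 3 and 5 in this gene. DESeq2 called 30 lower over 8 libraries and 0 over 10. With all 10 libraries 0 were called, and 30 of 30 fell more than 1.5-fold with an unadjusted p below 0.05, with a median of -1.74. Oasl1, an antiviral gene of the oligoadenylate synthetase family, was at 127, 92.1, 87.4, 134 and 134 CPM in PBS replicates 1 to 5 and at 106, 10.97, 12.5, 10.8 and 9.91 CPM in DMM replicates 1 to 5. Its log2 fold change was -3.46 over 8 libraries (standard error 0.16, adjusted p = 6.88e-05) and -1.93 over 10 (adjusted p = 0.387). Cmpk2, a nucleotide kinase induced by interferon, was at -2.65 (standard error 0.15, adjusted p = 7.45e-05) and -1.56. In all 30 targets DMM replicates 2 to 5 were under PBS replicates 1, 2, 4 and 5. The summed level of the list was 7089, 5091, 5254, 7454 and 7189 CPM in PBS and 6063, 1157, 1037, 1408 and 871 CPM in DMM replicates 1 to 5, so that PBS replicates 2 and 3 were the lower PBS kidneys. PBS replicate 2 was also the lowest PBS kidney for Irf7 and Irf9, and PBS replicate 3 for Stat2.

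Of 23 tested targets of IRF1 and interferon-gamma, 20 were called lower and 0 higher over 8 libraries (median log2 fold change -1.90), and 21 were lower over 10 at an unadjusted p under 0.05 and more than 1.5-fold (median -1.28). Gbp6, a guanylate-binding protein, was at 31.7 to 50.8 CPM in PBS kidneys, 40.3 CPM in DMM replicate 1 and 5.17 to 6.62 CPM in the other DMM kidneys (-2.66 over 8 libraries, adjusted p = 0.000108; -1.66 over 10). Irgm1, an immunity-related GTPase, had a log2 fold change of -2.24 (adjusted p = 0.000123) and -1.53 over 10. DESeq2 called 22 of the list lower over 8 libraries and 3 over 10, where edgeR called 0. These targets kept a level near PBS in the library labelled DMM replicate 1, where Irf1 was at 124 CPM.

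Targets of STAT3 and STAT6, whose own RNA was not called, had a smaller share of calls than those 2 lists, and the difference between lists was not tested. Of 16 tested STAT3 targets 0 were called lower by edgeR and 3 higher over 8 libraries (median -0.16). DESeq2 called 1 lower and 3 higher, and over 10 libraries edgeR called 0, 1 was lower and 3 higher at an unadjusted p under 0.05 and more than 1.5-fold, and DESeq2 called 0 lower and 2 higher. The 3 were the fibrinogen chain genes Fga (1.80), Fgb (1.66, adjusted p = 0.00461) and Fgg (2.02, adjusted p = 0.00875). Fgb was at 7.26, 12.1, 6.69, 10.7 and 6.88 CPM in PBS replicates 1 to 5 and at 6.79, 29.1, 28.7, 23.1 and 36.3 CPM in DMM replicates 1 to 5, so here DMM replicates 2 to 5 were high and DMM replicate 1 stayed with the PBS kidneys. Over 10 libraries Fga, Fgb and Fgg were at 1.53, 1.51 and 1.72, not called by edgeR. Of 12 tested STAT6 targets 2 were called lower and 0 higher over 8 libraries (median -0.56), and 2 fell over 10 by more than 1.5-fold with an unadjusted p below 0.05. Pdcd1lg2, the gene of a ligand of PD-1, was scarce, at 1.11 to 1.94 CPM in PBS and 0.304 to 1.17 CPM in DMM kidneys (-1.85, adjusted p = 0.0157; -1.49 over 10), and the chemokine gene Ccl22 was at -1.73 (adjusted p = 0.0276) and -1.38.

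IRF8 binds DNA with partners, and 3 of 7 partner genes were called lower over 8 libraries, with 3 lower over 10 by more than 1.5-fold at an unadjusted p below 0.05. DESeq2 called 4 lower over 8 libraries and 1 over 10. The 3 called by edgeR were Batf2 (-2.10, adjusted p = 0.00116), Spi1, which encodes the myeloid factor PU.1 (-1.20, adjusted p = 0.0216), and Ikzf1 (-0.85), at -1.47, -0.90 and -0.60 over 10 libraries. The median of the list was -0.99 over 8 libraries, further from 0 than the -0.65 of Irf8 itself. Spi1 was at 50.8 to 68.4 CPM in PBS kidneys, 52.4 CPM in DMM replicate 1 and 14.3 to 33.0 CPM in the other DMM kidneys.

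The likeness of patterns was measured as the root mean square, over 10 libraries, of the difference between log2 CPM values centred on each gene's own mean, so that a smaller value is a closer pattern. Among the 3 tested genes nearest to Stat2 were Ifi204 (0.117) and Tor3a (0.123). Nearest to Irf7 were Ifit3 (0.255), Ifit3b (0.285) and Oas1g (0.339), of which Ifit3 and Ifit3b are near-identical paralogs whose reads counting may split. Nearest to Irf9 were Mov10 (0.0976), Tapbp (0.132) and Daxx (0.134), to Irf1 Psmb10 (0.0998), Aif1 (0.143) and Parp10 (0.144), to Irf5 Unc93b1 (0.0744), Spats2l (0.0864) and Selplg (0.0993), and to Irf8 Prex1 (0.0795), Arap1 (0.102) and Traf3ip3 (0.108). Irf3 was nearest to Ubl7 (0.0571), Adrm1 (0.0596) and Dad1 (0.0611), Stat3 to Rnf216 (0.0483), Ctbp1 (0.0528) and Ap2m1 (0.0530), and Stat6 to Ppp1r12c (0.0459), Mrfap1 (0.0516) and Arl6ip5 (0.0520). Within the family, Stat3 and Stat6, which moved little, were the closest pair at 0.118. Among the members that fell, Irf9 and Irf5 were closest at 0.178, with Irf5 the 14th nearest of all tested genes to Irf9, although they belong to different classes. Irf1 was at 0.227 from Irf9 and 0.235 from Irf5. Irf7 lay no nearer than 0.703 to any other member, its closest being Stat2.

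Some members share bases with a neighbouring gene, and whether counting used the strand is not given in the sources used here, so that reads from the shared stretch cannot be told apart. Irf9 shares 123 bases with Rnf31 on the same strand. Rnf31, a ubiquitin ligase gene, was itself called lower over 8 libraries (-0.74, adjusted p = 0.00447; -0.53 over 10), at 61.7 to 73.1 CPM in PBS kidneys, 69.6 CPM in DMM replicate 1 and 39.4 to 47.0 CPM in the other DMM kidneys. Irf5 shares 1045 bases with Tnpo3 on the opposite strand, which had 17409 reads over all libraries against 7511 for Irf5 and a log2 fold change of 0.38 over 8 libraries (adjusted p = 0.369) and 0.33 over 10. Tnpo3 was at 184.5 CPM in DMM replicate 4 and at 86.5 to 98.7 CPM in the other 9 libraries. Irf3 shares 1065 bases with Bcl2l12 (1209 reads against 7481) and Irf1 shares 907 with Gm17334 (108 reads against 17988). Irf7 shares 45 bases with Phrf1 and Stat6 shares 40 with Nab2, also on the opposite strand. Irf8 lies within Gm20388, which had 0 reads.

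Promoter sequences from RefSeq (GRCm38.p6, 250 bases before to 50 after the start of transcription) were found for all 9 genes and searched on both strands. The motifs were GAAANNGAA, a short form of the element bound by ISGF3 and IRF proteins, and TTCNNNGAA, the palindrome bound by STAT dimers. Irf1, Irf8 and Irf9 have 2 windows each, which makes 12 windows, and a gene counts as matched if either window is. The motifs overlap only in that both may contain GAA. GAAANNGAA occurred in 8.56% of 32851 promoters of this length and in 1 of the 12 windows (Stat2), and TTCNNNGAA occurred in 8.3% and in 2 of the 12 (the windows shown of Irf1 and Irf8). The other windows of Irf1 and Irf8 held neither. These counts were not tested against the background shares. Both Irf9 windows, from 55603735 and from 55604329, begin inside the deposited gene, which starts at 55603571. The bases before that start were therefore not searched for Irf9. The promoters of the 3 genes with a match, and that of Irf7, the member with the largest fall, are shown because these members fell together. Capitals mark the matches. The Stat2 window is chr10:128270248-128270547 (plus strand), with GAAANNGAA on its minus strand from position -221. The Irf1 window is chr11:53769764-53770063 (plus), with TTCNNNGAA from -90. The Irf8 window is chr8:120736108-120736407 (plus), with TTCNNNGAA from -171 and from -153. The Irf7 window is chr7:141266375-141266674 (minus) and holds neither motif, which says only that these letters are not in these bases. A match is a description of the sequence and not evidence of binding.
Stat2 promoter: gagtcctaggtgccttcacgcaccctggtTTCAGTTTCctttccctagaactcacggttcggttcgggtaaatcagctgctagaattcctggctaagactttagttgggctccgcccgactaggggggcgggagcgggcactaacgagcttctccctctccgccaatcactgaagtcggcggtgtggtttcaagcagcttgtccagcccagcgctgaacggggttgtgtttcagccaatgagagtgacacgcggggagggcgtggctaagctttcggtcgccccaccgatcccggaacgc
Irf1 promoter: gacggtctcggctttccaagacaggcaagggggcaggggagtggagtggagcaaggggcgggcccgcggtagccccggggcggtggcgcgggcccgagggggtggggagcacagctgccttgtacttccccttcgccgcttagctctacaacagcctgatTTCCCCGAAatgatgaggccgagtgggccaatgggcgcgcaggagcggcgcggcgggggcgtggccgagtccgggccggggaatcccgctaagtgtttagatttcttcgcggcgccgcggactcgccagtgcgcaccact
Irf8 promoter: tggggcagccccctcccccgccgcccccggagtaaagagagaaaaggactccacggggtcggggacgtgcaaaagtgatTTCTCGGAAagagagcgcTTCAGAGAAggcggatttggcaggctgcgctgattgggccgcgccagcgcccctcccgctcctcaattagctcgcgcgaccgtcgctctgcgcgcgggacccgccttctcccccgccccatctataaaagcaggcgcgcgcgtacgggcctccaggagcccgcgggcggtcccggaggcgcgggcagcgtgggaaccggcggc
Irf7 promoter: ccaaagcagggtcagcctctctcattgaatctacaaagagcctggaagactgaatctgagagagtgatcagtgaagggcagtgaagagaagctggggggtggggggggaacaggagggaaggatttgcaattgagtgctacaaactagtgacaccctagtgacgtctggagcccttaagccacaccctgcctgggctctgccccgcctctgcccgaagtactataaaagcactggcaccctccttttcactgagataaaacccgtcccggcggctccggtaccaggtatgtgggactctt
With the shorter letters GAAANNGA, found in 21.0% of promoters, 3 of the 9 genes had a match in a window (Stat2, Irf7 and Irf8), and with TTCNNNGA, found in 39.9%, 6 did.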

How the data were processed

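Bulk mRNA libraries of 5 PBS and 5 DMM kidneys were analysed, grouped by the labels. The authors aligned reads to mm10; the submitters' processing notes name HISAT2 2.0.5. The counting tool, annotation release and use of strand are not given in the sources used here. The authors deposited whole-number counts of reads per gene, not normalized, and FPKM, which divide each count by gene length and by a library size that is not the plain total (16746979 against 19475833 counted reads in DMM replicate 4). The deposited group means are a signal in counts over size factors and served only to find which libraries they include. The authors' log2 fold change, p-value and adjusted p-value columns were not used. Gene length, deposited in base pairs with other annotation values, entered no test.

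Counts were scaled by TMM, filtered by filterByExpr and tested across all genes with edgeR's quasi-likelihood F test (edgeR 4.0.16, R 4.3.3), with Benjamini-Hochberg adjustment. Calls needed more than a 1.5-fold change with an adjusted p below 0.05. Log2 CPM used a prior count of 2. Permutation tests of mean log2 CPM were exact and two-sided, with 252 ways to relabel 10 libraries and so no p below 0.00794. The steps were tested on simulated data. Alternatives were DESeq2 1.42.0, other scalings, filters and thresholds, a replicate block, and libraries left out. Members and lists were chosen with earlier results of these data known, and the 8 libraries are those with weight in the deposited means. Named genes were the members, in each pathway list the 2 called genes of smallest p over 8 libraries in each direction or else the most abundant gene by FPKM, the 3 nearest patterns and overlapping neighbours. Where 5 or fewer genes of a list were called, the rest, like Eif2ak2, Ifnar2, Tbk1, Mavs and Socs3, were named after their values were seen. So were Ifnar1, Ifngr2, Jak1 and Jak2. The other 7 STAT and IRF genes are reported by counts only. The replicates are separate mice by the study's methods, and molecular identifiers are not described, so counting limits cover counting error only.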

Additional observations from a re-analysis of the deposited data

Results flagged for a closer look

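In 3 kidneys, 5 values were far from the rest of their group of 5, with a gap to the nearest mouse that was above 0.71 of the group's whole range, which chance alone gives in about 1 in 20 groups. In the library labelled DMM replicate 1, Stat2 was at 259.6 CPM, Irf7 at 488.4 CPM and Irf9 at 163.4 CPM, with gaps of 0.916, 0.891 and 0.769 of the range. Irf3 was at 15.04 CPM in DMM replicate 4, a gap of 0.845. Irf8 was at 112.2 CPM in PBS replicate 5, a gap of 0.85. Their causes were not tested.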

How the results depend on the processing

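Over 10 libraries edgeR called 0 genes lower, 0 higher and 0 of the 9 members. DESeq2 gave 36 lower and 14 higher. Leaving out each library in turn gave 0 to 436 lower, 0 to 50 higher and 0 to 6 members, the highest of each without DMM replicate 1. With DMM replicate 4 left out together with PBS replicate 3 and DMM replicate 1, an alternative chosen after seeing the data, 1281 genes were lower, 1129 higher and 5 members called. Over 8 libraries (590 lower, 452 higher, 6 members), DESeq2 gave 911 and 749, library size alone 276 higher, and an adjusted p under 0.01 gave 219, 73 and 3 members. Leaving out each library in turn gave 276 to 1281 lower, the lowest without PBS replicate 5 and the highest without DMM replicate 4, 131 to 1129 higher and 4 to 6 members. Where these counts moved, the cause was not tested.

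With the replicate block over 8 libraries, 0 genes were lower, 0 higher and 0 members called, and the lowest member adjusted p was 0.0514 (Stat2). The log2 fold changes of the 6 members called over 8 libraries were of similar size under the block (Irf7 -3.53, Stat2 -2.44, Irf1 -1.61, Irf9 -1.36, Irf5 -1.11 and Irf8 -0.63), and the block leaves fewer residual degrees of freedom. The replicate numbers did not pair the mice: correlations of same-numbered deviations were -0.06, 0.079, 0.341, 0.124 and -0.223, and only replicate 2 correlated best with its own number. Of 162 alternative values of the members' log2 fold changes over 10 libraries, 146 kept their side of the threshold. The other 16 were 6 without DMM replicate 1, 5 in the 7 libraries and 5 with an exact permutation p under 0.05, which is not adjusted, so only those 6 passed the call itself in a set that differs by 1 library. Of 135 over 8 libraries, 119 kept it and 16 lost the call: 8 of Irf8, 4 of Irf5 and 1 each of Stat2, Irf1, Irf7 and Irf9 under the block. No call turned to the other direction. Whether stranded counting or a wider promoter window would move a value was not examined. The effect of depth was not tested: members were counted at 249 reads or more in every library, and 16 of 19 interferon genes had 0 counts in all 10.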

Other observations

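Among genes with a RefSeq promoter, GAAANNGAA occurred in 24.7% of 425 genes called lower over 8 libraries, in 4.6% of 326 called higher and in 7.63% of all 11930 tested, while among the 9 STAT and IRF genes it occurred in Stat2 only. TTCNNNGAA occurred in 9.18%, 7.98% and 6.94%. No test was made of these shares, since the lists of called genes rest on 8 chosen libraries.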
